A study of Arabidopsis thaliana with 72 samples.

Results

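The comparison described here is the earliest shoot response to t-chalcone in Arabidopsis thaliana seedlings, at 1 h of treatment. It rests on 6 RNA-seq libraries of 72 deposited, chosen by their labels: 3 of shoots given 21 μM t-chalcone for 1 h and 3 of shoots given 0.1% ethanol (EtOH) for 1 h. Seedlings were 14 days old and had grown on agar with 1% sucrose in days of 16 h light. Each plate, sown with 24 seeds, received 8 mL of solution 7 h into the light period. The study also sampled roots and later times up to 24 h. No ecotype, mutant or transgene is named in the labels, and the sources used here do not state the solvent of t-chalcone. Whole shoots were sampled in bulk, so fewer cells of a type and less RNA per cell cannot be told apart. The labels do not say whether the 3 libraries of a group came from separate plates, so a p-value here reflects library-to-library spread that may be technical.

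t-Chalcone (trans-chalcone) is an aromatic ketone with the open-chain skeleton from which flavonoids are built, and it is known as a phytotoxic compound. Plants handle foreign electrophilic compounds in steps: cytochromes P450 oxidise them, glutathione transferases and UDP-glycosyltransferases conjugate them, and ABC transporters move the products out of the cell or into the vacuole. In Arabidopsis the tau-class glutathione transferases (GSTU genes), the UGT73B glycosyltransferases and CYP81D11 are well-known members of this programme. Seedling shoots also carry fast transcripts that respond within minutes to touch, wounding or handling, among them zinc-finger, ERF and WRKY transcription factor genes and calmodulin-like genes.

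Of 22884 genes in the table, 19116 were tested with limma on log2(value + 1), where a value is a read count that the authors divided by a size factor. At an adjusted p (Benjamini-Hochberg over all genes tested) under 0.05, 92 genes passed, or 0.481% of those tested. Of these, 54 rose with t-chalcone (0.282%) and 38 fell (0.199%), and 2073 genes had an unadjusted p under 0.05. The fold changes of the median gene were near 0 (log2 0.03). In 85 of the 92 genes all 3 t-chalcone libraries lay on one side of all 3 EtOH libraries, as they did in 16.3% of all genes tested. The calls used the same libraries, so this separation is not separate support for them. The largest rises on the log2 scale were those of GSTU25 (3.46), HSP17.4 (2.59) and CYP81D11 (2.42), and SAUR genes were also among the rises. Of the 38 genes that fell, 5 were on the fast stress-response list, such as BAP1, and 3 on the low-oxygen list, such as ADH1. The spread behind these calls came from 30 shoot libraries, and the counts depended on that. This set was chosen with earlier results of these data known. With only the 6 libraries at 1 h limma called 10 higher and 0 lower, with 1278 higher and 756 lower at an unadjusted p under 0.05, and with all 33 shoot libraries it called 6 higher and 5 lower. No fall described here therefore passed with the 6 libraries alone, where the smallest adjusted p of a fall was 0.0709. The number of genes that passed depended strongly on single libraries: without EtOH replicate 3 it was 133 higher and 189 lower, and without EtOH replicate 1 it was 20 higher and 3 lower. On the same libraries edgeR's quasi-likelihood test on whole numbers recovered from the deposited values called 91 higher and 135 lower. With limma and the wider set of shoot libraries, 17 genes passed with each of the 6 libraries left out in turn, 15 higher and 2 lower. They were AT3G13310, MAKR6, GSTU25, UGT73B1, AT5G18030, COL1, AT3G54500, CYP81D11, AT1G29450, SAUR68, AT2G44140, BETA-OHASE 2, GSTU7, AT2G29500 and UGT73B3 among the rises and AT1G26390 and ADH1 among the falls. Every other named call was lost without at least 1 library.

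**Figure D1:**
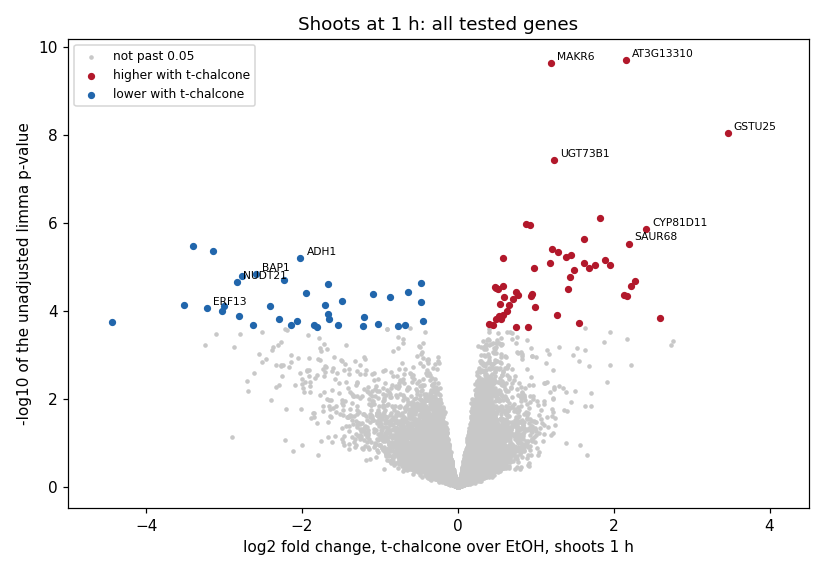
The x axis is the log2 fold change of t-chalcone over EtOH in shoots at 1 h and the y axis the negative log10 of limma's unadjusted p-value, with 1 point for each of the 19116 genes tested. The 54 genes that rose are in red and the 38 that fell in blue; AT3G13310 and MAKR6 stand highest and GSTU25 farthest right.

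The recovered totals, in M (mega), were 14.4, 14.8 and 23.6 M for EtOH replicates 1, 2 and 3 and 14.5, 24.1 and 8.73 M for t-chalcone replicates 1, 2 and 3. Marker levels went with the tissue label: the mean log2 level of 41 photosynthesis genes was 13.18 to 13.50 in these 6 libraries against 6.17 to 6.80 in roots at 1 h. The mean over 12 root marker genes was 2.32 to 3.27 in these shoots against 6.52 to 8.73 in roots, and none of the 9 root markers tested passed in shoots with limma or edgeR, with 1 at an unadjusted p under 0.05. EtOH replicates 1 and 2 had a mean absolute log2 difference of 0.253, and the t-chalcone libraries of 0.276 to 0.293 from each other. EtOH replicate 3 was nearer to every t-chalcone library than to either other EtOH library. Its mean absolute log2 difference from the t-chalcone libraries was 0.248 to 0.264, smaller than its difference from EtOH replicate 2 (0.312) and close to that from EtOH replicate 1 (0.270). Among the 38 genes that fell, EtOH replicate 3 was the EtOH library nearest to t-chalcone in 32 (84.2%), and among the 54 that rose in 32 (59.3%). The share over all genes tested was not computed, so how unusual these shares are is not known.

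GSTU25, a tau-class glutathione transferase that joins glutathione to electrophiles, had the largest rise among the named genes. Its normalised counts were 3.92, 3.72 and 7.56 in the EtOH libraries and 69.9, 95.1 and 38.2 in the t-chalcone libraries. The groups did not overlap, and the lowest t-chalcone library was replicate 3, also the shallowest. The means were 5.07 ± 2.16 and 67.7 ± 28.5 (SD, n = 3 each), a log2 change of 3.46 ± 0.41 (limma standard error, adjusted p = 5.99e-05). Its neighbour on chromosome 1, GSTU24, counted 28.6, 30.3 and 33.3 with EtOH and 148, 200 and 119 with t-chalcone, a log2 change of 2.27 ± 0.44 (adjusted p = 0.0132). As with GSTU25, t-chalcone replicate 2 was the highest library and replicate 3 the lowest. GSTU1 rose by 1.62 ± 0.29, GSTU7 by 1.39 ± 0.24 and GSTU8 by 1.27 ± 0.28 (log2, adjusted p = 0.00744, 0.00687 and 0.0356). GSTU1 and GSTU7 lie near each other on chromosome 2. How the authors counted reads shared by such near copies is not stated, which leaves the values of individual GSTU genes uncertain. Of the 36 glutathione transferase genes tested, these 5 rose (13.9%, against 0.282% of all genes tested), none fell and 31 did not pass. The gene lists were chosen with earlier results of these data known, so such shares are descriptive. The median of the family was 0.00, against 0.03 for all genes, so the rise was carried by a few tau members. The count of 5 was 2 without EtOH replicate 1 or t-chalcone replicate 1, 3 without EtOH replicate 2 or t-chalcone replicate 2, and 7 without t-chalcone replicate 3.

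CYP81D11, a cytochrome P450 known to be induced by foreign compounds, counted 30.8, 34 and 32 in the EtOH libraries and 179, 260 and 119 in the t-chalcone libraries. The EtOH libraries were close to each other, and every t-chalcone library was far above them. The log2 change was 2.42 ± 0.38 (adjusted p = 0.0034). It passed under all 18 alternatives run, as did only AT3G13310 besides. The 3 neighbouring glycosyltransferases UGT73B1, UGT73B2 and UGT73B3, which attach glucose to flavonoids and foreign phenols, rose together. UGT73B1 counted 401, 376 and 397 with EtOH and 984, 912 and 875 with t-chalcone (log2 change 1.24 ± 0.16, adjusted p = 0.000182). It had the tightest replicates of the detoxification genes that rose. UGT73B3 counted 56.5, 69.6 and 32.6 with EtOH and 169, 240 and 130 with t-chalcone (1.77 ± 0.32, adjusted p = 0.00778), and UGT73B2 rose by 1.49 ± 0.27 (adjusted p = 0.0087). Of the 25 detoxification genes tested, these 4 rose (16%, against 0.282% of all genes tested) and none fell, with a median of 0.42. The count of 4 was 3 to 5 when each library was left out in turn. Several others lay above EtOH in every t-chalcone library and did not pass: UGT73B5 with means of 125 and 272 (adjusted p = 0.129), UGT75B1 at a log2 difference of 1 (adjusted p = 0.11) and OPR2, an oxophytodienoate reductase relative, at 0.94 (adjusted p = 0.086). ABCG37, a plasma membrane exporter of phenolic and auxin-related compounds in roots, rose from 86.8, 65.4 and 88 to 246, 291 and 134 (1.41 ± 0.28, adjusted p = 0.0153). DJ1A, a DJ-1 family protein linked to oxidative stress, rose by 0.59 ± 0.12 (adjusted p = 0.0181).

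The upstream sequences of detoxification genes that rose are shown because the TGACG motif, the core of the as-1 element that TGA transcription factors bind, is known from promoters of this programme. Each is the 300 bases before the gene start in RefSeq's annotation of the TAIR10.1 assembly, read 5′ to 3′ on the gene's strand, with TGACG and its reverse complement CGTCA in capitals. The deposited values carry no coordinates and their notes name TAIR10, so genes were matched by identifier. The windows are chr1:5871724-5872023 (+ strand) for GSTU25, chr2:12632539-12632838 (- strand) for GSTU1, chr3:10790554-10790853 (- strand) for CYP81D11 and chr4:16344819-16345118 (- strand) for UGT73B3. None overlapped another annotated gene.
GSTU25: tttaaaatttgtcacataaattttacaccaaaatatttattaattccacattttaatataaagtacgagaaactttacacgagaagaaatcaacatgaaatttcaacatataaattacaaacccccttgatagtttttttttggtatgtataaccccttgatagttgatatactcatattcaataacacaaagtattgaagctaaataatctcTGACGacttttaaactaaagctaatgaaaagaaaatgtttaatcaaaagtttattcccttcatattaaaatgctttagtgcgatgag
GSTU1: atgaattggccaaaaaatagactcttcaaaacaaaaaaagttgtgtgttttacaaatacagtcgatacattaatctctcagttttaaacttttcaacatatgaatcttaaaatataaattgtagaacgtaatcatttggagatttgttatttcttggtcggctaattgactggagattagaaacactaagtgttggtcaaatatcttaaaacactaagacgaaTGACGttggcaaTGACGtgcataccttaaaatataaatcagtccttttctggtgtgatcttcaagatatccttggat
CYP81D11: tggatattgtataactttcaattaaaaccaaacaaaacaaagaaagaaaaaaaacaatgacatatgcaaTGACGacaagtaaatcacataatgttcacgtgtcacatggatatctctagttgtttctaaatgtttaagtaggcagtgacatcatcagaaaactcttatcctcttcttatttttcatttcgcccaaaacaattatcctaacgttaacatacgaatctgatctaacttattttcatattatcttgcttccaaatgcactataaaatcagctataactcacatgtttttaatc
UGT73B3: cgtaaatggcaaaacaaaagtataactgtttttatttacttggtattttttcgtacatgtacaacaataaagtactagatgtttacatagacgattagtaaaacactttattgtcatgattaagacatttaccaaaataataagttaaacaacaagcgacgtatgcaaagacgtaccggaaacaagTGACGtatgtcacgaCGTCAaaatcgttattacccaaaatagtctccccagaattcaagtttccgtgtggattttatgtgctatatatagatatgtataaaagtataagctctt
TGACG in either orientation was in the windows of all 5 glutathione transferase genes that rose and of 3 of the 4 detoxification genes, UGT73B2 being without it. Members of these lists that did not pass were not counted, so a trait of the family cannot be told from one of the rises. The windows of GSTU24, GSTU7, GSTU8 and UGT73B1, not printed, each overlapped 1 other annotated gene. Across all 54 genes that rose it was in 15 (27.8%), across the 38 that fell in 11 (28.9%), and across the 19031 tested genes with a window in 22.2%. The motif shares its letters TGAC with TTGAC, the core of the W-box that WRKY factors bind, so a TTGACG run counts for both. TTGAC itself was in 26 of the 54 (48.1%), 24 of the 38 (63.2%) and 50.2% of all. A match is a description of the letters, not of a bound site.

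**Figure D2:**
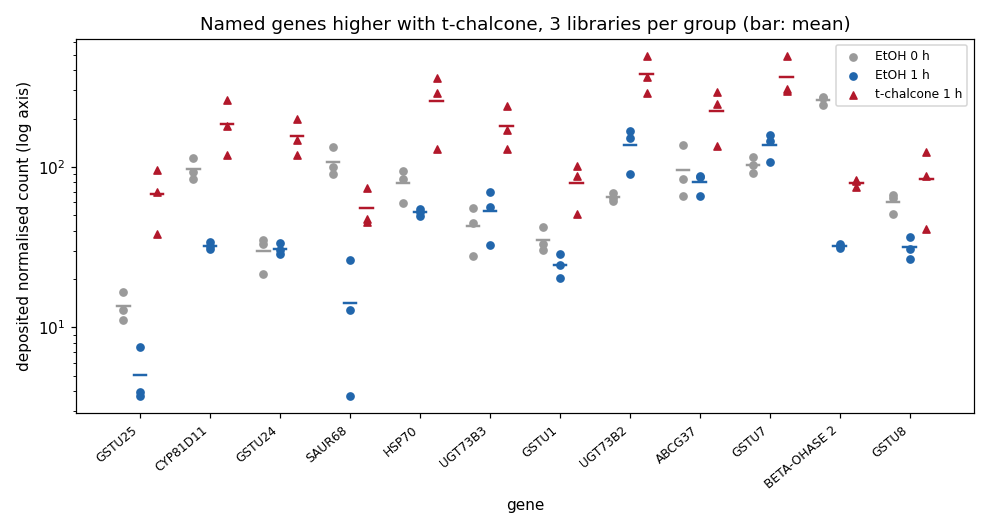
The y axis (log scale) is the deposited normalised count and the x axis the 12 named genes that rose, in order of fold change; grey circles are EtOH 0 h, blue circles EtOH 1 h and red triangles t-chalcone 1 h, 3 libraries each, with a bar at the mean. The naming rule required no overlap between the 2 groups at 1 h. SAUR68 and BETA-OHASE 2 were higher at 0 h than in either group at 1 h.

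Of the heat shock genes, which encode chaperones, 3 passed, all of them higher. HSP70 (AT3G12580), a cytosolic chaperone, counted 52.1, 49.4 and 54.6 with EtOH and 289, 357 and 129 with t-chalcone. The t-chalcone libraries differed from each other by more than the EtOH libraries did, with replicate 3 lowest again. Its log2 change was 2.17 ± 0.44 (adjusted p = 0.0181). AT2G29500, annotated as an HSP20-like chaperone, rose by 1.89 ± 0.33 (adjusted p = 0.00726). HSP17.4, a small heat shock protein, rose from 1.12, 1.59 and 3.44 to 18.1, 29.6 and 8.18 (2.59 ± 0.58, adjusted p = 0.0392), and its EtOH values lie near the lowest value a library can show. These 3 of 26 heat shock genes tested rose (11.5%, against 0.282% of all genes tested) and none fell. A positive log2 difference was seen in 21, and the median was 0.67. The count of 3 was 1 when EtOH replicate 1, EtOH replicate 2, t-chalcone replicate 1 or t-chalcone replicate 2 was left out. HSP90.1, a cytosolic HSP90, lay at 1.63 (adjusted p = 0.0892). AT3G13310, annotated as a DnaJ-domain chaperone and not on the list, had the smallest p of all genes: 191, 199 and 253 with EtOH against 876, 1070 and 914 with t-chalcone (2.15 ± 0.21, adjusted p = 2.26e-06).

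The window of HSP17.4 is printed as an example of the heat shock element GAANNTTC, which heat shock factors bind as repeats. It is chr3:16984868-16985167 (- strand, TAIR10.1), with both matches in capitals.
HSP17.4: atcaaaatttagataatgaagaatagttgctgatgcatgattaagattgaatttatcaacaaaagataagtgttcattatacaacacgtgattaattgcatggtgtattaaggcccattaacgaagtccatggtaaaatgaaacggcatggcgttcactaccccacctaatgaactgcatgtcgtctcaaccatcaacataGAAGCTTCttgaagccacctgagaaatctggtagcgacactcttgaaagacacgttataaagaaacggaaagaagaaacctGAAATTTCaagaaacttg
A total of 7 motifs was counted in these windows on both strands, and their matches may share bases. GAANNTTC was in the windows of 12 of the 54 genes that rose (22.2%), 7 of the 38 that fell (18.4%) and 11.3% of all tested genes. HSP17.4 was the only one of the 3 heat shock genes that rose with this motif in its window. CACGTG, the G-box, was in 11 of the 54 (20.4%), 6 of the 38 (15.8%) and 7.98% of all. CGCGTT was in 2 of the 54 (3.7%), 4 of the 38 (10.5%) and 3.25% of all, and in 2 of the 3 heat shock genes that rose. TGTCTC was in 6 of the 54 (11.1%), 5 of the 38 (13.2%) and 12.6% of all. AAATATCT was in 3 of the 54 (5.56%), 2 of the 38 (5.26%) and 5.85% of all.

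SAUR genes, small auxin up RNA genes whose products promote cell expansion, formed the second group of rises. SAUR68 counted 12.9, 3.72 and 26.1 in the EtOH libraries and 74.1, 47.6 and 45.4 in the t-chalcone libraries (2.19 ± 0.37, adjusted p = 0.00572). EtOH replicate 3 was the highest of its group and still below every t-chalcone library. SAUR68 counted 90, 133 and 99.8 at 0 h, so both groups at 1 h lay below the start. The adjacent SAUR-like genes AT1G29450, AT1G29460 and AT1G29500 rose by 1.61, 2.22 and 1.68 (log2, adjusted p = 0.00493, 0.0149 and 0.00842). On chromosome 5, AT5G18030 rose by 1.82, SAUR20 by 1.95, SAUR19 by 2.13 and SAUR23 by 1.55 (adjusted p = 0.00299, 0.00778, 0.018 and 0.0465), all from EtOH means under 6. Such clustered copies are alike in sequence and may share reads. Of 52 tested genes whose annotated product names SAUR, 10 rose and 2 fell (AT3G09870 and AT3G12830), 37 had a positive difference, and the median was 0.56. In all 23.1% of them passed, against 0.481% of all genes tested (0.282% higher and 0.199% lower). This family was picked after its values were seen. On the auxin response list 4 of 25 genes rose, all of them SAUR genes (16%, against 0.282% of all genes tested). None fell, and 21 were positive with a median of 0.41. The count of 4 was 1 without EtOH replicate 1, EtOH replicate 2 or t-chalcone replicate 2, and 2 without t-chalcone replicate 1.

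Single genes of plastid, light and clock functions also rose, while none of 20 light signalling or 41 photosynthesis genes passed. BETA-OHASE 2, a carotenoid hydroxylase, counted 33, 31.4 and 32.3 with EtOH and 83.1, 74.7 and 81.8 with t-chalcone (1.28 ± 0.22, adjusted p = 0.00631). At 0 h it counted 243, 273 and 268, above both groups at 1 h. COL1, a CONSTANS-like gene, rose by 0.88 ± 0.14 and AT3G54500 by 0.92 ± 0.14 (adjusted p = 0.00307 for both). They were the 2 of 29 circadian clock genes that rose (6.9%, against 0.282% of all genes tested). None fell, and the list's median was 0.20. LHY, a morning gene of the clock, lay at 1.29 with no overlap of the groups (adjusted p = 0.0846). In chlorophyll synthesis CRD1, a cyclase subunit, rose by 0.54 and CH1, which makes chlorophyll b, by 0.52 (adjusted p = 0.0249 and 0.0368). They were 2 of 21 genes tested (9.52%, against 0.282% of all genes), and the list's median was 0.02. Neither passed without EtOH replicate 1, EtOH replicate 2 or t-chalcone replicate 1. RPT2 (AT2G30520), which acts in phototropism, and JAC1, which acts in chloroplast movement, rose by 0.58 and 0.66 (adjusted p = 0.0149 and 0.0249). None of 41 photosynthesis genes passed with limma (median 0.09), 6 had an unadjusted p under 0.05, and edgeR called 1 higher and 1 lower. RBCS1B, a small subunit of Rubisco, lay at -0.91 (adjusted p = 0.052) and LHCB2.1, a light-harvesting protein, at 0.55 (adjusted p = 0.11).

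Other rises stood alone. MAKR6, annotated as a membrane-associated kinase regulator, counted 222, 225 and 227 with EtOH and 489, 558 and 510 with t-chalcone (1.2 ± 0.12, adjusted p = 2.26e-06), with little spread in either group. MYB4, a repressor of phenylpropanoid genes, rose by 0.97 ± 0.18 (adjusted p = 0.00842). PDS1, the hydroxyphenylpyruvate dioxygenase of tocopherol and plastoquinone synthesis, rose by 0.71 ± 0.15 (adjusted p = 0.0197). HAB1, a protein phosphatase that restrains abscisic acid signalling, rose by 0.52 ± 0.10 (adjusted p = 0.0153), the only one of 23 abscisic acid and cold genes to pass. AT3G59940, a kelch-repeat gene on the starvation list, rose by 1.18 ± 0.21 (adjusted p = 0.00744), the only one of 19.

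The 0 h libraries show where single genes stood at 0 h. Their columns are labelled EtOH at 0 h and are identical to those labelled untreated, so which of the 2 they were is not settled. For SAUR68, SAUR20, AT3G54500 and BETA-OHASE 2 every 0 h library was above every library at 1 h, while GSTU25, GSTU24, HSP70 and UGT73B3 with t-chalcone were above every 0 h library. Of the 54 rises, 43 had a 0 h level above EtOH at 1 h (79.6%, against 52.6% of all tested genes). In 29 (53.7%, against 45.2%) t-chalcone lay between 0 h and EtOH. Of the 38 falls, 30 had a 0 h level below EtOH (78.9%, against 47.4%), and 9 had t-chalcone in between (23.7%). The same EtOH libraries made the calls, so these shares are not independent of them. The 0 h libraries entered the estimate of the spread but not the contrast.

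Large falls included NUDT21, BAP1 and ERF13, of which BAP1 is on the fast stress-response list. NUDT21, a nudix hydrolase that cleaves nucleoside diphosphate compounds, counted 2220, 2900 and 322 in the EtOH libraries and 140, 313 and 128 in the t-chalcone libraries. EtOH replicate 3 was far below the other EtOH libraries and only just above the highest t-chalcone library. The means were 1810 ± 1340 and 194 ± 104 (SD, n = 3 each), a log2 change of -2.83 ± 0.54 (adjusted p = 0.0132). BAP1, which restrains cell death, counted 261, 508 and 80 with EtOH and 29.5, 57.8 and 26.4 with t-chalcone (-2.59 ± 0.48, adjusted p = 0.0106). ERF13, an ethylene-response transcription factor, counted 81.2, 121 and 13 with EtOH and 3.01, 5.78 and 5.45 with t-chalcone (-3.22 ± 0.69, adjusted p = 0.0263). In both genes EtOH replicate 3 was again the lowest of its group. Both also had 0 h counts above every t-chalcone library, 168 to 244 for BAP1 and 220 to 263 for ERF13. The 0 h counts of ERF13 were above every EtOH library at 1 h as well, while those of BAP1 lay within the EtOH range.

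RTFL12, a small peptide gene of the ROTUNDIFOLIA family, fell by 3.03 ± 0.66 and CAF1a, a deadenylase that shortens mRNA tails, by 2.3 ± 0.52 on the log2 scale (adjusted p = 0.0307 and 0.0399). CML23, a calmodulin-like calcium sensor, fell by 2.23 ± 0.43 and the kinase gene MAPKKK14 by 1.67 ± 0.32 (adjusted p = 0.0131 and 0.0139). RRTF1, an ERF factor that responds to redox state, had the lowest fold change of all, with 286, 455 and 6.18 in EtOH against 3.61, 9.51 and 0.91 in t-chalcone (-4.44 ± 1.01, adjusted p = 0.0447). Here EtOH replicate 3 lay inside the t-chalcone range. The same held for RHL41 (also ZAT12), a stress zinc-finger gene, at -2.14 ± 0.50, and for PUB22, a ubiquitin ligase of immune signalling, at -1.71 ± 0.36 (adjusted p = 0.0477 and 0.0249). AT1G26390, a berberine-bridge family oxidase, counted 19.6, 77.6 and 17.2 with EtOH and 1.2, 2.04 and 2.73 with t-chalcone (-3.4 ± 0.57, adjusted p = 0.0058). Among genes that did not pass, CAF1b lay at -2.22 (adjusted p = 0.0515), WRKY46 at -2.28 (0.134) and CML38 at -1.71 (0.176).

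On the fast stress-response list 5 of 37 genes tested fell (BAP1, CAF1a, RRTF1, RHL41 and PUB22), none rose, and none of the 37 had a positive difference. The share that fell was 13.5%, against 0.199% of all genes tested. The median was -1.71, against 0.03 for all genes. The mean log2 level over the list was 8.70, 9.12 and 7.02 in the EtOH libraries and 6.48, 7.21 and 6.57 in the t-chalcone libraries, and 7.45, 8.42 and 7.72 at 0 h. EtOH replicate 3 thus lay below t-chalcone replicate 2. The list's count turned on single libraries: 19 genes fell without EtOH replicate 3, 6 without t-chalcone replicate 2, and 0 without EtOH replicate 1, EtOH replicate 2, t-chalcone replicate 1 or t-chalcone replicate 3. edgeR called 16.

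**Figure D3:**
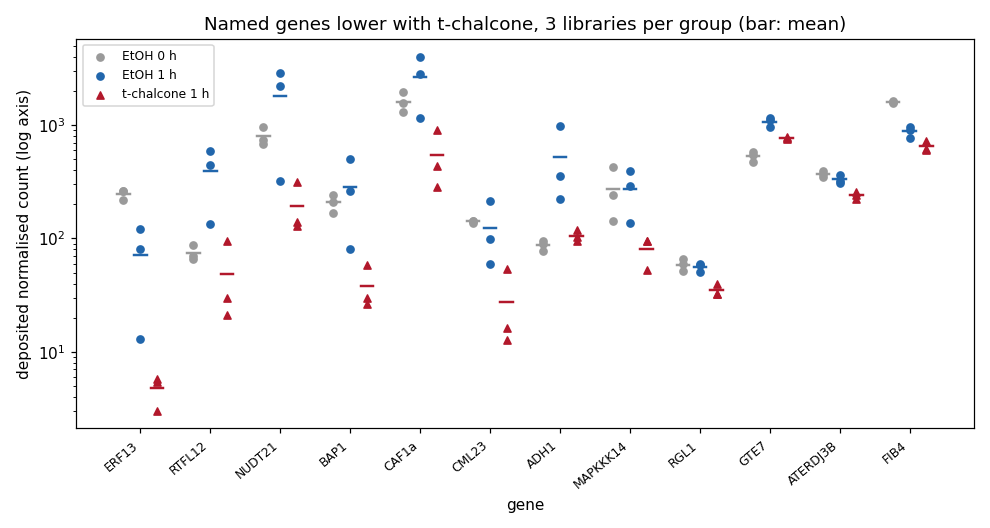
The y axis (log scale) is the deposited normalised count and the x axis the 12 named genes that fell, in order of fold change; grey circles are EtOH 0 h, blue circles EtOH 1 h and red triangles t-chalcone 1 h, 3 libraries each, with a bar at the mean. The lowest blue circle of ERF13, NUDT21, BAP1 and ADH1 is EtOH replicate 3, while RGL1, GTE7, ATERDJ3B and FIB4 show small, tight differences.

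Genes of low-oxygen metabolism formed a second group of falls. ADH1, the alcohol dehydrogenase of fermentation, which also turns over ethanol, counted 353, 994 and 225 in the EtOH libraries and 94.6, 103 and 118 in the t-chalcone libraries. The t-chalcone libraries were even, near the 0 h counts of 77.8 to 95.3, and all 3 EtOH libraries were higher. The log2 change was -2.02 ± 0.36 (adjusted p = 0.00687). Whether the t-chalcone solution held ethanol is not stated, and any part of ethanol in this difference was not tested. AT5G39890, annotated as an aminoethanethiol dioxygenase, fell by 1.84 ± 0.42 and AT3G10040, annotated as a DNA-binding factor, by 1.49 ± 0.31 (adjusted p = 0.0476 and 0.0223). These were 3 of 13 low-oxygen genes tested (23.1%, against 0.199% of all genes tested). None rose, none was positive, and the median was -1.49. Others with no overlap that did not pass were AT4G33070 at -2.27 (adjusted p = 0.0782) and LBD41, a LOB-domain factor, at -1.15 (adjusted p = 0.242). The list's mean log2 level was 7.65, 8.20 and 7.06 with EtOH, 6.04, 6.56 and 6.70 with t-chalcone and 4.61 to 4.76 at 0 h, so both groups at 1 h stood above the start and EtOH the more. Its count was 1 without EtOH replicate 1, EtOH replicate 2, t-chalcone replicate 1 or t-chalcone replicate 3, 2 without t-chalcone replicate 2, and 5 without EtOH replicate 3.

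Other falls were of mixed size. AT5G17350 counted 350, 595 and 66.3 with EtOH and 21.7, 48.2 and 17.3 with t-chalcone (-3.14 ± 0.54, adjusted p = 0.00631). AT4G27654, AT4G27652 and AT4G27657 fell by 3.51, 3 and 2.8 (log2, adjusted p = 0.0249, 0.0254 and 0.0368). AT2G30020 fell by 2.63 and AT4G10265 by 2.41 (adjusted p = 0.0477 and 0.0254). These 6 were picked after their values were seen. Smaller falls followed. RGL1, a DELLA repressor of gibberellin responses, counted 51, 59.5 and 58.1 with EtOH and 32.5, 32.3 and 40 with t-chalcone (-0.67 ± 0.16, adjusted p = 0.0476). GTE7, a bromodomain protein, fell by 0.48 ± 0.09, ATERDJ3B, a chaperone partner in the endoplasmic reticulum, by 0.47 ± 0.10, and FIB4, a plastid lipid-body protein, by 0.44 ± 0.10 (log2, adjusted p = 0.0133, 0.0224 and 0.0429). ATERDJ3B was the only one of 15 endoplasmic reticulum stress genes to pass. The list's median was -0.27, and in 11 of its genes every t-chalcone library lay below every EtOH library, as in 5.68% of all genes. CYP71A13, an enzyme of camalexin synthesis, fell by 1.65 ± 0.37 (adjusted p = 0.0399), the only one of 11 indole glucosinolate and camalexin genes to pass.

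No gene passed with limma on the other lists tested: redox (19 genes, median -0.07), proteasome (16, -0.03), flavonoid (15, -0.19), phenylpropanoid (17, 0.01), light signalling (20, 0.15), cytokinin (9, -0.23), jasmonate (24, -0.43), salicylic acid (13, -0.70), ethylene (13, -0.29), sulfur (19, -0.12), aliphatic glucosinolate (12, -0.33), cell cycle (16, -0.08), cell wall (22, -0.06), iron (20, 0.21) and nitrate (17, -0.19), nor among the 6 guard cell, epidermis and phloem markers (0.07). At this stage the flavonoid pathway, whose first committed product is a hydroxylated chalcone, thus gave no call. Its mean log2 level was 3.09 to 3.24 with EtOH and 3.05 to 3.14 with t-chalcone. Its summed value was 773, 657 and 797 with EtOH and 870, 1010 and 847 with t-chalcone. The sums did not overlap, and their difference was not tested. At an unadjusted p under 0.05 these lists held 0 (guard cell, epidermis and phloem markers) to 9 (jasmonate) genes, and edgeR called 2 jasmonate, 1 salicylic acid and 2 ethylene genes lower and none on the others. On the salicylic acid list none of the 13 differences was positive. On the jasmonate list CYP94B3, which breaks down the active hormone, lay at -2.88 (adjusted p = 0.0848), with EtOH replicate 3 inside the t-chalcone range.

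**Figure D4:**
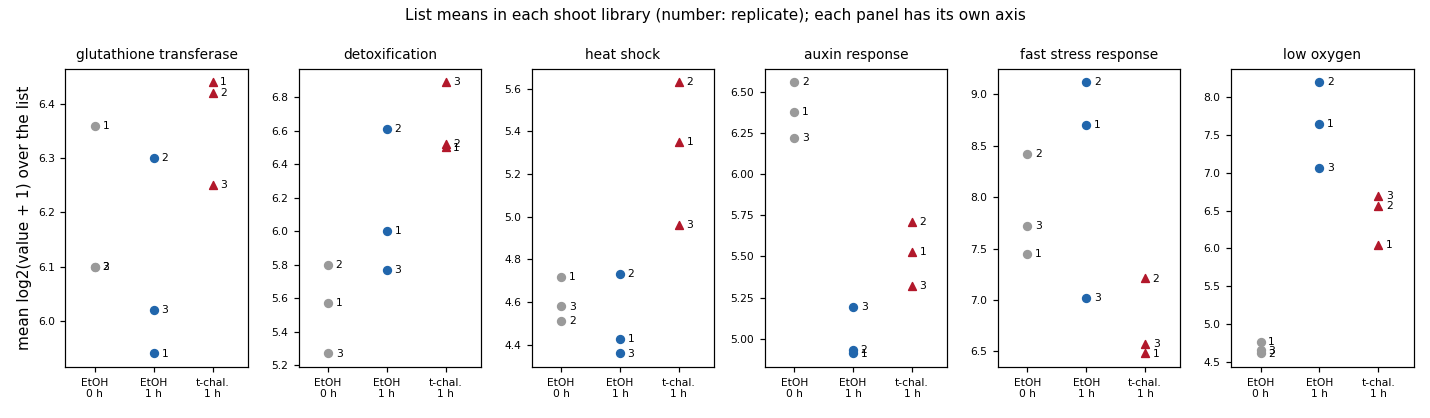
Each panel plots, for 1 gene list, the mean of log2(value + 1) over the list in each shoot library, with the replicate number beside the point; grey is EtOH 0 h, blue EtOH 1 h and red t-chalcone 1 h, and each panel has its own axis. Heat shock, auxin response and low oxygen show no overlap between the groups at 1 h. On the glutathione transferase list EtOH replicate 2 (6.30) lies above t-chalcone replicate 3 (6.25). On the detoxification list EtOH replicate 2 (6.61) lies above t-chalcone replicates 1 and 2 (6.50 and 6.52). On the fast stress-response list EtOH replicate 3 (7.02) lies below t-chalcone replicate 2 (7.21).

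Roots at 1 h, which share no library with the shoots, were used to see how far the shoot response was shared. In roots 1107 of 20461 genes passed (5.41%), 454 higher (2.22%) and 653 lower (3.19%). Of the 54 genes that rose in shoots, 23 also rose in roots and 1 fell. Of the 38 that fell in shoots, 1 rose in roots and none fell. Of the 25 detoxification genes, 17 rose in roots and none fell (median 1.88, against 0.42 in shoots), and the difference between tissues passed for 8, among them ABCG40 at -3.36 (adjusted p = 0.000242). Of 37 glutathione transferase genes tested in roots, 13 rose and 3 fell, and the difference passed for 5. Both counts in roots stand against the shares of all genes above. In roots GSTU25 rose by 2.57, GSTU24 by 2.87, CYP81D11 by 2.65 and UGT73B3 by 1.91 (log2), and their differences between tissues were 0.90, -0.59, -0.23 and -0.14, none past the threshold (adjusted p = 0.505, 0.814, 0.961 and 0.975). HSP17.4 rose by 4.68 in roots, and AT2G29500 rose more in roots than in shoots (3.4 and 1.89, adjusted p of the difference 0.0246). The SAUR gene AT5G18030 was at 0.04 in roots, and its difference between tissues of 1.78 passed (adjusted p = 0.0196). The difference passed for 297 genes in all (1.45%), in 138 with the shoot effect the higher (0.674%) and in 159 the lower (0.777%). Among them were 11 of the 54 that rose in shoots and 21 of the 38 that fell. The shoot libraries that made those calls also enter the difference, so the counts of 11 and 21 are not independent of the calls.

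At 3 h in shoots 1307 genes passed (6.84%), 311 higher (1.63%) and 996 lower (5.21%). Of the 54 genes that had risen at 1 h, 19 were higher and 4 lower at 3 h. Of the 38 that had fallen, 1 was higher and 2 lower. AT3G13310 (2.27), GSTU25 (2.13), CYP81D11 (1.92), GSTU1 (1.90) and UGT73B1 (1.1) rose at 3 h as well. SAUR68 lay at -0.49 and MAKR6 at 0.13, neither past the threshold, and AT3G54500 fell by 0.69 (adjusted p = 0.0073). The effect at 1 h differed from that at 3 h in 402 genes (2.1%), higher at 1 h in 297 (1.55%) and lower in 105 (0.549%). Among them were 28 of the 54 and 19 of the 38. The 1 h libraries that made the calls enter this difference too, so the counts of 28 and 19 are not independent of the calls. For AT3G54500 the difference was 1.61 (adjusted p = 0.000479) and for MAKR6 1.07 (adjusted p = 0.00185), whereas for GSTU25 it was 1.33 and for CYP81D11 0.50, neither past the threshold (adjusted p = 0.211 and 0.653). At 6 h, where 15.4% of all genes were higher and 7.73% lower (23.2% in all), 17 of the 54 were higher and 17 lower. At 12 h, with 1.97% and 2.37% of all genes (4.34%), 7 were higher and 3 lower. At 24 h, with 6.08% and 6.68% of all genes (12.8%), 8 were higher and 6 lower. Of the 38 that fell at 1 h, 0, 1 and 4 were lower and 4, 1 and 0 higher at 6, 12 and 24 h. Counts at different times are not like for like. Libraries under 0.5 M (mega) were left out: EtOH replicate 2 at 12 h, and EtOH replicate 3 and t-chalcone replicate 2 at 24 h. At 3 h t-chalcone replicate 1 had only 1.51 M.

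**Figure D5:**
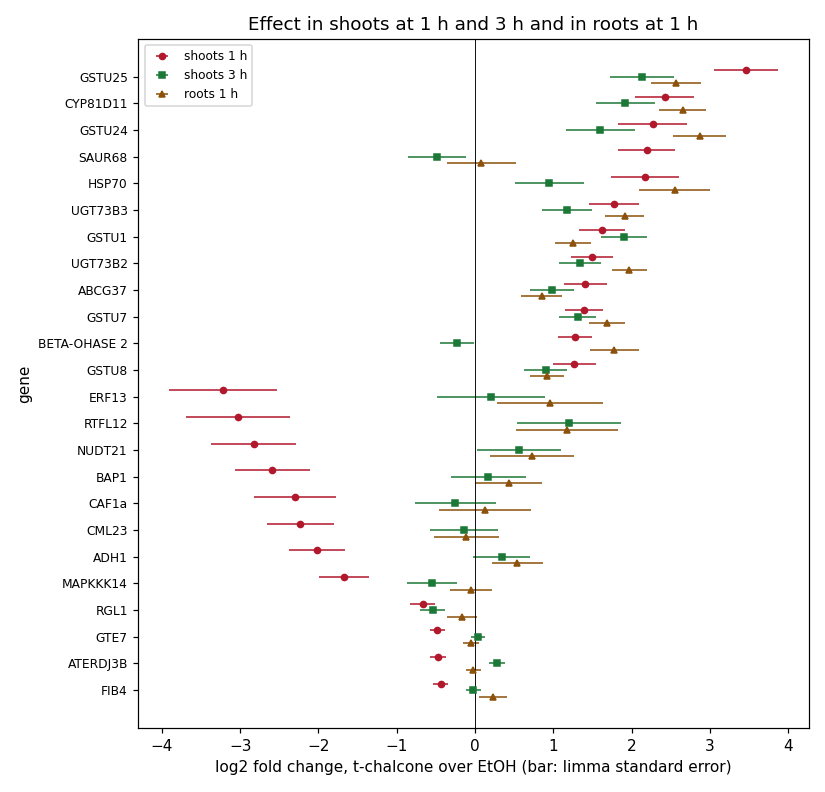
The x axis is the log2 fold change of t-chalcone over EtOH with limma's standard error as the bar, and the y axis lists the 24 named genes; red circles are shoots at 1 h, green squares shoots at 3 h and brown triangles roots at 1 h. The glutathione transferase, UGT73B and CYP81D11 points lie right of 0 in all 3 settings, while ERF13, RTFL12, NUDT21, BAP1 and ADH1 lie left of 0 in shoots at 1 h only.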

How the data were processed

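RNA-seq values came from 1 table of 22884 genes in 72 libraries. The deposited signal is a count per gene over a size factor per library, and the submitters' processing notes name DESeq2 1.14.1 and TAIR10. The sources used here give no aligner, counter or strand setting. Values of each column were whole multiples of its lowest value within 0.01 (100.0% of values), and whole numbers so recovered gave the totals and the count tests. The untreated 0 h columns were identical to the EtOH 0 h columns and counted once, leaving 66 libraries.

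limma 3.58.1 (R 4.3.3) with a mean-variance trend was fitted to log2(value + 1) over the 30 shoot libraries of at least 0.5 M (mega), 1 mean per group, on genes that reached 10 in 3 or more libraries. P-values were two-sided with a Benjamini-Hochberg threshold of 0.05. Adding 1 before the log2 understates folds of low genes. Differences between tissues and times were contrasts of contrasts, over 61 libraries for tissues. edgeR 4.0.16 and DESeq2 1.42.0 on recovered whole numbers, other filters, pseudocounts, scalings and left-out libraries were alternatives. The scripts were tested on simulated data. Named genes were the 12 largest rises and 12 largest falls that had a symbol, no overlap and 50 or more as the larger group mean, the 10 highest and 10 lowest such genes that did not pass, and from each list those that passed and the 2 smallest p; others were chosen after their values were seen. The main test, its depth cutoff, the members and the lists were all chosen with earlier results of these data known. Symbols and products came from RefSeq's TAIR10.1 annotation, which held 22708 of the identifiers.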

Additional observations from a re-analysis of the deposited data

Results flagged for a closer look

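The effect of t-chalcone at 1 h differed between shoots and roots (limma, contrast of contrasts, adjusted p under 0.05) for 7 of the named genes that fell in shoots. The shoot effect minus the root effect was -4.18 for ERF13, -4.20 for RTFL12, -3.56 for NUDT21, -3.02 for BAP1, -2.13 for CML23, -2.56 for ADH1 and -1.62 for MAPKKK14, on the log2 scale. None of these genes passed in roots, where their effects ran from -0.11 to 1.17. They were named for falls in the same shoot libraries that enter the difference, so the naming rule favoured a negative value. Over all genes tested the difference between tissues passed in 1.45%.

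The effect in shoots differed between 1 h and 3 h for 8 named genes. The 1 h effect minus the 3 h effect was 2.69 for SAUR68 and 1.51 for BETA-OHASE 2, which rose at 1 h. It was -4.23 for RTFL12, -3.40 for NUDT21, -2.77 for BAP1, -2.37 for ADH1, -0.52 for GTE7 and -0.76 for ATERDJ3B, which fell at 1 h. These genes too were named on the 1 h libraries that enter the difference, which passed in 2.1% of all genes tested. EtOH replicate 3 at 1 h was the EtOH library nearest to t-chalcone in 84.2% of the genes that fell (share over all genes not computed). Without that library the tissue difference passed in 193 higher and 323 lower genes and the time difference in 579 and 245.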

How the results depend on the processing

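The 54 higher and 38 lower genes became 6 and 5 with all 33 shoot libraries, 10 and 0 with only the 6 libraries at 1 h, 113 and 84 with array weights, 91 and 135 with edgeR, and 161 and 162 with DESeq2. edgeR kept 89 and DESeq2 91 of the 92. With a mean of at least 50, where fewer genes were tested, they were 39 and 21. The other filters, pseudocounts, scalings and robust fit gave 44 to 52 higher and 28 to 49 lower. Leaving out each library gave 20 to 133 higher and 3 to 189 lower, and 17 genes passed every time. The tissue difference, 138 higher and 159 lower, became 9 and 18 with all libraries, 262 and 415 with edgeR, and 66 to 193 and 75 to 323 with a library left out. The time difference, 297 and 105, became 2 and 1 with all libraries, 125 and 299 with edgeR, 159 higher with TMM, and 52 to 579 and 26 to 245 with a library left out. MYB60 (AT1G08810), not past the threshold at 0.21, ran from -0.016 (without EtOH replicate 2) to 0.346 with a library left out. The cause of these changes was not tested. No paired analysis was possible because the labels give no replicate numbers. With 3 libraries a group, and 8.73 M (mega) in the shallowest, genes near a library's lowest value are uncertain.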
